A study of Mus musculus with 24 samples.

Results

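The genes described here encode parts of the axoneme, the microtubule core of motile cilia, and the factors that assemble it. They were found by symbol in the hippocampal count table of a mouse study. The symbols searched for were the cilia and flagella associated proteins (Cfap followed by a digit), axonemal dynein chains (Dnah, Dnaic, Dnali), dynein assembly factors (Dnaaf), the dynein regulatory complex (Drc), radial spoke heads (Rsph), sperm-associated antigens (Spag), tektins (Tekt) and the light chain gene Dynlrb2. Of 51912 rows, 79 matched, and 66 of these had a mean of at least 0.3 CPM over the 24 libraries. CPM is the count divided by the library's total count, times 1000000. Just inside that limit were Dnaaf1 (0.338 CPM), Cfap53 (0.335 CPM) and Cfap157 (0.326 CPM), and just outside it Cfap99 (0.281 CPM) and Dnah3 (0.269 CPM). Symbols do not always match function: 6 of the 66 (Spag4, Spag5, Spag7, Spag9, Cfap36 and Cfap97) are known for work at the nuclear envelope, the mitotic spindle, kinase scaffolds or primary cilia, and they are given apart from the other 60.

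RNA came from 12 C57BL/6J mice, with dorsal and ventral hippocampus taken from each, whose fathers (sires) had received either nicotine or saline. Libraries formed 8 groups of 3: dorsal or ventral tissue from saline-sired males, saline-sired females, nicotine-sired males and nicotine-sired females, named here by a letter per animal (A, B and C). The labels name no treatment of the offspring themselves, and for their age and for the dose to the sires no value is given in the sources used here. A number in the titles differs between the 4 combinations of sire treatment and sex, so what it marks cannot be told apart from those groups. The labels do not give the number of sires, so the 3 animals of a group may share one. Within a region, p-values measure the spread between these animals. The comparison of regions treated the dorsal and the ventral library of an animal as independent, except in a refit with the animal as a block.

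Motile cilia beat because dynein arms, rows of motors fixed to the outer microtubule doublets, walk along the neighbouring doublet. Outer arms set the beat frequency and inner arms the waveform. Radial spokes, the central apparatus and the nexin-dynein regulatory complex hold the doublets together and time the motors, tektins and other inner proteins stiffen the doublets, and assembly factors fold the dyneins in the cytoplasm before they enter the cilium. In the brain the main carriers of motile cilia are ependymal cells, which line the ventricles and move cerebrospinal fluid, and choroid plexus epithelium, which secretes it and also carries cilia. The transcription factor Foxj1 switches on the programme in these cells, and RFX factors act with it through a DNA element called the X-box. Neurons and astrocytes of the hippocampus bear a primary cilium, which lacks most of these parts.

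Totals ran from 32049770 to 47486547 counts per library. A list of 9 hippocampal neuron genes summed to at least 7620 CPM in every library. That sum was not set against other brain tissue, and it does not check the dorsal and ventral labels. Choroid plexus, which lies against the hippocampus, differed widely between libraries. Its transcript Ttr (transthyretin) was at 1028 CPM or more in 6 dorsal libraries (saline-sired male A, saline-sired female C, nicotine-sired males A and B, nicotine-sired females B and C) and in 2 ventral ones (nicotine-sired females B and C), with 5283 CPM at the most and 142 CPM or less in the other 16. The same 8 libraries had a choroid plexus level (the mean log2 CPM of 22 marker genes) above 2.5, and none of those markers was at 0 in every library. Results below are also given without these libraries, an alternative chosen after seeing the data. It leaves 1 nicotine-sired male and 1 nicotine-sired female in the dorsal fit, each assumed to vary like the other groups.

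The 60 axonemal and assembly genes were expressed at low levels. Per kb of exon, the highest of all 66 were Cfap36 (24.8 CPM per kb), a primary cilium gene, and Spag7 (23.4 CPM per kb), a nuclear protein gene, both outside the motile programme. Among the axonemal genes the radial spoke genes stood first, with 10.8 CPM per kb for Rsph3a, 9.71 for its near-identical copy Rsph3b and 6.84 for Rsph9. The inner junction gene Cfap20 had 6.06 CPM per kb and the tektin gene Tekt5 4.08. Dynein heavy chains, the motors themselves, were far lower on that scale: 0.853 CPM per kb for Dnah9, 0.483 for Dnah1 and 0.267 for Dnah5, down to 0.0219 for Dnah8. Reads of the copies Rsph3a and Rsph3b, of Dnah7a, Dnah7b and Dnah7c, and of Spag6 and Spag6l may be split between them, so these levels are uncertain. Exons of 28 members overlap a gene on the opposite strand, and the strand setting of the counting is not given in the sources used here.

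In CPM, the scale of all further levels, the members with the highest means in each role were Dnah9 (13.6 CPM) and Dnah5 (4.17) for outer arms, Dnah1 (6.29) and Cfap43 (2.55) for inner arms and Rsph3a (32.6) and Rsph3b (30.2) for spokes. For the regulatory complex they were Drc1 (7.49 CPM) and Drc3 (7.21), for the central apparatus Cfap74 (7.07) and Cfap69 (5.97), and for the doublet inner proteins Cfap20 (27.0) and Tekt5 (7.38). Assembly factors were led by Spag1 (5.91 CPM) and Dnaaf5 (5.67) and the other ciliary genes by Dynlrb2 (1.40) and Cfap58 (0.962). Spag9 (228 CPM), a kinase scaffold gene, and Cfap36 (68.1) led the 6 genes with roles elsewhere. Long heavy chain genes collect more reads per transcript, so these values compare libraries and not genes.

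Summed over the 60 genes, dorsal libraries differed from each other more than ventral ones. The dorsal sums were 387, 288 and 239 CPM in saline-sired males and 220, 213 and 229 CPM in saline-sired females. They were 250, 272 and 195 CPM in nicotine-sired males and 211, 391 and 291 CPM in nicotine-sired females. The 2 highest dorsal sums, those of saline-sired male A and nicotine-sired female B, were in the libraries with the most Ttr (5283 and 5278 CPM). In ventral tissue the sum ran from 205 CPM in nicotine-sired male C to 279 CPM in nicotine-sired female C, with a mean of 244 ± 19.2 CPM (SD, n = 12) against 265 ± 65.1 CPM (SD, n = 12) in dorsal tissue. The 6 genes with roles elsewhere moved little, from 319 to 393 CPM in dorsal and 320 to 427 CPM in ventral libraries. By role, the outer arms summed to between 17.6 and 45.8 CPM in dorsal and 15.5 and 21.9 CPM in ventral libraries, the inner arms to between 15.1 and 47.9 and between 17.0 and 28.5 CPM. The central apparatus summed to between 15.5 and 47.1 CPM in dorsal and 21.3 and 34.4 CPM in ventral libraries, and the 5 assembly factors to between 15.9 and 24.2 and between 14.8 and 19.3 CPM. In bulk tissue, fewer ciliated cells and less RNA per cell cannot be told apart.

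**Figure D1:**
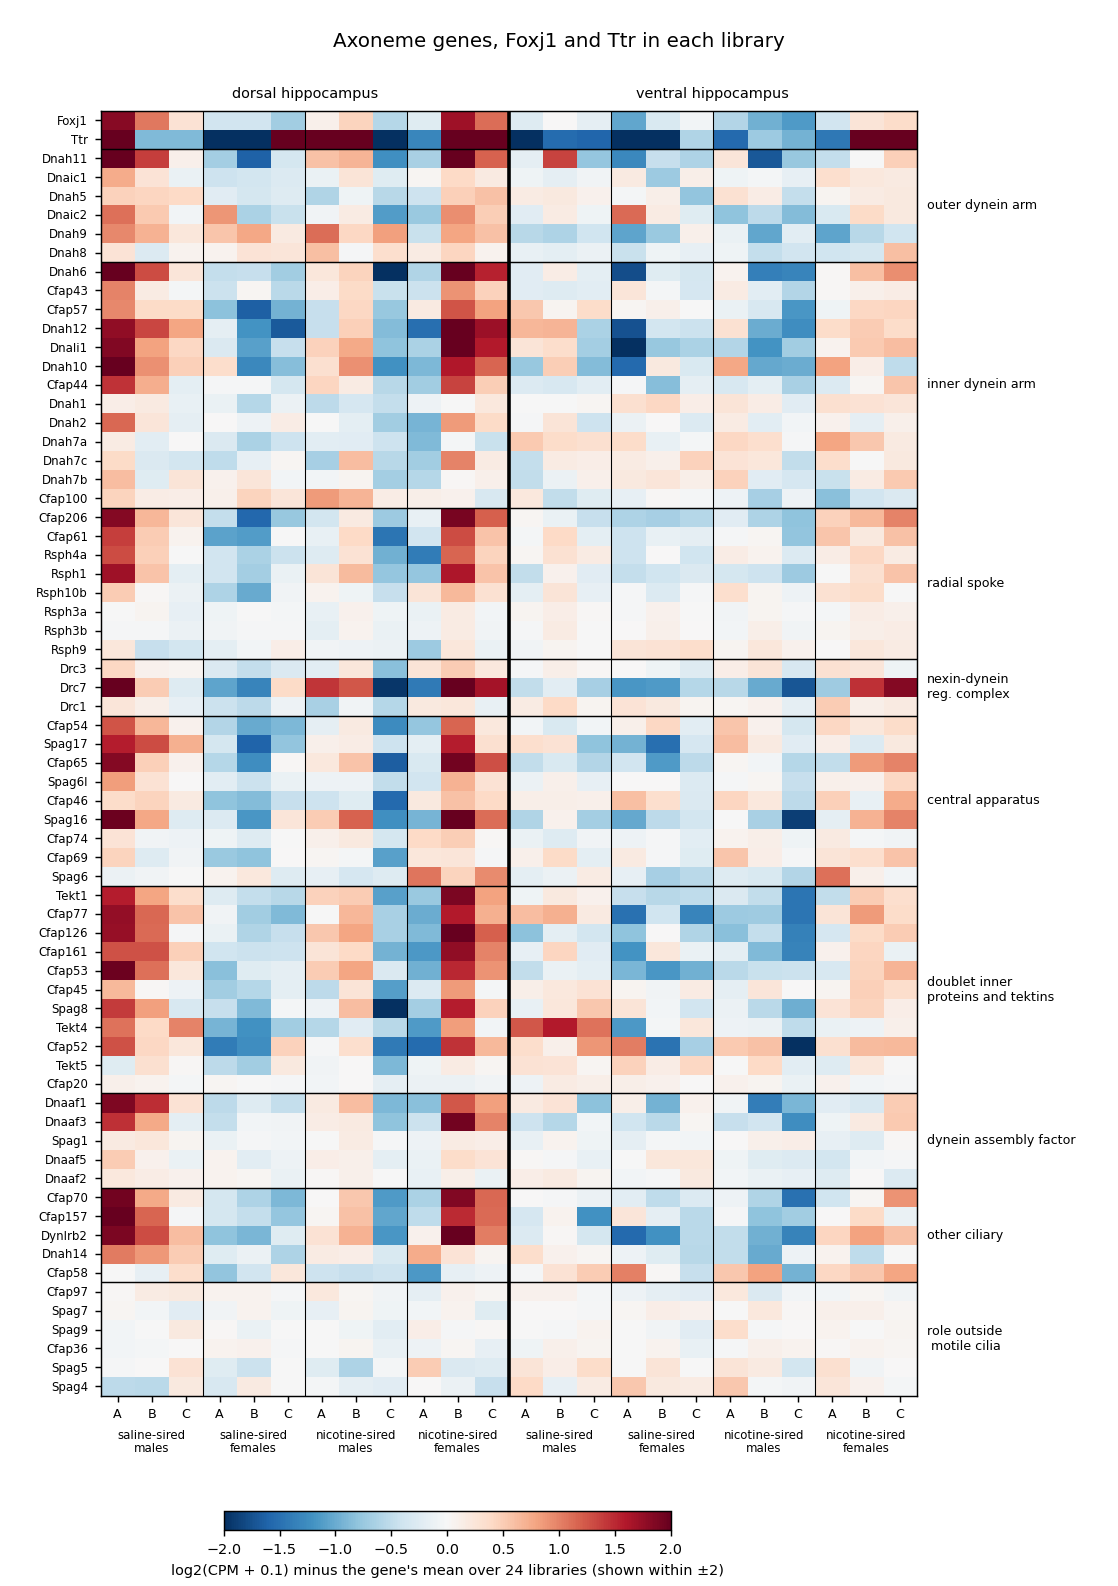
Level of each gene in each library as log2(CPM + 0.1) minus the gene's mean over the 24 libraries (colour, shown within ±2), with rows grouped by role below Foxj1 and Ttr and columns grouped by region, sire treatment and sex. Dorsal saline-sired male A and nicotine-sired female B are high across most axonemal rows, and Foxj1 and Ttr are high in the same libraries.

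Members differed greatly in how far they varied. The nexin-dynein regulatory complex gene Drc7 ran 33.6-fold from its lowest library (0.645 CPM, dorsal nicotine-sired male C) to its highest (21.6 CPM, dorsal nicotine-sired female B). By contrast, the inner junction gene Cfap20 ran 1.27-fold and the spoke stalk genes Rsph3a and Rsph3b 1.27-fold and 1.29-fold. Levels of Dnah12, an inner arm heavy chain, ran from 0.0232 to 2.0 CPM, at a median of 12.5 counts.

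Foxj1, the master regulator, was at 30.1, 17.7 and 10.3 CPM in dorsal saline-sired males and at 6.43, 6.47 and 5.20 CPM in dorsal saline-sired females. Nicotine-sired males had 9.04, 11.5 and 5.66 CPM there and nicotine-sired females 7.13, 27.4 and 18.4 CPM. Its ventral levels lay between 3.81 and 11 CPM. Across the 12 dorsal libraries the rank correlation of a member with Foxj1 had a median of 0.80 over the 66 members, and 49 of them exceeded 0.5. Over 14773 protein-coding genes of at least 0.3 CPM the median was 0.154, and 3244 exceeded 0.5. Ventral libraries gave a median of 0.364 with 25 of 66 members over 0.5, against 0.0909 and 1211 of the protein-coding genes, and 22 members exceeded 0.5 in both regions. These are descriptions, and the points share libraries and the differences in choroid plexus content named above.

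By role, the dorsal median was 0.867 for assembly factors, 0.853 for both the central apparatus and the doublet inner proteins, 0.846 for inner arms, 0.804 for the regulatory complex, 0.766 for spokes, 0.755 for outer arms and 0.937 for the 5 other ciliary genes. The highest single values were those of Dnah6 (0.972), an inner arm heavy chain, Cfap70 (0.965) and Cfap43 (0.958), a tether of an inner arm. Some axonemal and other ciliary genes followed Foxj1 less closely or not at all, with a dorsal rank correlation under 0.5. Among them were Rsph3a (0.462), Rsph3b (0.392) and Cfap20 (0.196). These have the highest mean CPM of the axonemal genes (32.6, 30.2 and 27.0), so they weigh heavily in the summed CPM. In ventral libraries their rank correlations were 0.72, 0.531 and -0.049. The others in dorsal libraries were Dnah7b (0.441), Tekt5 (0.364), Dnah9 (0.322), Cfap58 (0.28), Spag6 (0.252), Rsph9 (0.182), Dnah8 (-0.035) and Cfap100 (-0.189). The 6 genes with roles elsewhere had a median of -0.0735 in dorsal and -0.0525 in ventral libraries, with 0 over 0.5.

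Dynlrb2, a dynein light chain gene, was tested for this relation, in a family of 8 relations of single genes. On log2(CPM + 0.1) its level correlated with that of Foxj1 in dorsal libraries with Pearson's r = 0.945 (permutation test, two-sided, p = 2e-05, adjusted 0.00016; n = 12) and Spearman's rho = 0.937 (permutation p = 8e-05, adjusted 0.00064). Without the 2 libraries farthest from the median of Foxj1, r was 0.898. In ventral libraries r was 0.816 (permutation p = 0.00152, adjusted 0.00608; n = 12) and rho 0.783 (permutation p = 0.00386, adjusted 0.0154), and r was 0.687 without the 2 farthest. Each title number holds 3 libraries per region, too few for a value within it.

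Ttr levels fall into separate clusters, so the relation to choroid plexus was computed within them. These tests over 6 libraries were exact permutation tests. Leaving out the 2 libraries farthest from the median of Ttr kept few of the 6, so those r values are a weak check. Among the 6 dorsal libraries under 1000 CPM of Ttr, Dynlrb2 correlated with Ttr at r = 0.955 (exact permutation p = 0.00833, adjusted 0.0222) and rho = 0.943 (permutation p = 0.0167, adjusted 0.0444), and r was 0.974 without the 2 farthest. Among the 6 above, r was 0.938 (permutation p = 0.0278, adjusted 0.037) and rho 0.771 (permutation p = 0.103, adjusted 0.137), with r at 0.694 without the 2 farthest. For Foxj1 and Ttr, r was 0.813 below (permutation p = 0.0194, adjusted 0.037; rho 0.829, permutation p = 0.0583, adjusted 0.0933; r 0.813 without the 2 farthest) and 0.891 above (permutation p = 0.025, adjusted 0.037; rho 0.829, permutation p = 0.0583, adjusted 0.0933; r 0.703 without the 2 farthest). In the 10 ventral libraries under 1000 CPM no such relation passed: r was -0.0309 for Dynlrb2 (permutation p = 0.926, adjusted 0.926; rho -0.0182, permutation p = 0.975, adjusted 0.975; r 0.142 without the 2 farthest) and -0.181 for Foxj1 (permutation p = 0.633, adjusted 0.723; rho -0.0667, permutation p = 0.87, adjusted 0.975; r -0.359 without the 2 farthest).

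**Figure D2:**
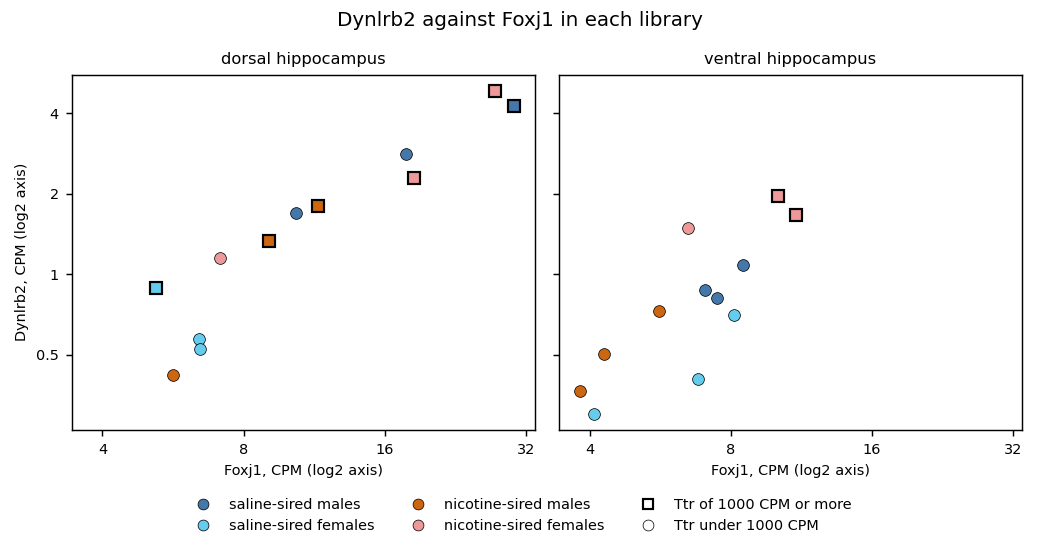
Dynlrb2 against Foxj1 in each library, in CPM on log2 axes, for dorsal (left) and ventral (right) tissue. Colours give sire treatment and sex, and squares mark libraries with at least 1000 CPM of Ttr. Dynlrb2 runs from 0.422 to 4.85 CPM in dorsal and from 0.301 to 1.96 CPM in ventral libraries and is high where Foxj1 is high.

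The members' promoters were searched for the X-box of RFX factors, written as GTNNCC and GGNNAC with 2 bases between them, which reads the same on both strands, and for the forkhead motif GTAAACA on either strand. Neither pattern contains the other. RefSeq promoters (GRCm38.p6, 250 bases before to 50 bases after the start site) were found for 56 of the 66 members. The X-box pattern was in 8 of these 56 genes (14.3%) and in 395 of 17492 protein-coding genes with a promoter of that length (2.26%). The forkhead letters were in 2 (3.57%), Cfap20 and Cfap43, against 3.45% of all. The 8 X-box matches are shown because the pattern was in a larger share of these genes than of all, with capitals for the fixed bases of the pattern, each in the direction of its gene:
Cfap206: GTttCCacGGttAC
Cfap77: GTcaCCaaGGagAC
Tekt4: GTgtCCtgGGaaAC
Cfap126: GTatCCatGGctAC
Rsph9: GTctCCatGGagAC
Spag6l: GTtgCCctGGagAC
Dnaaf5: GTtcCCttGGagAC
Spag5: GTaaCCggGGgaAC

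The match began 23 bases before the start site in Cfap206 (chr4:34730216-34730229, minus strand), 6 before it in Rsph9 (chr17:46144193-46144206, minus strand) and 18 before it in Dnaaf5 (chr5:139150217-139150230, plus strand). It began 82 bases before in Cfap126 (chr1:171122963-171122976, plus strand), 160 before in Tekt4 (chr17:25471430-25471443, plus strand), 186 before in Spag5 (chr11:78301405-78301418, plus strand) and 236 before in Cfap77 (chr2:29055289-29055302, minus strand). In Spag6l it began 34 bases after the start site (chr16:16829316-16829329, minus strand). Spag5, a mitotic spindle gene, is the one of the 8 with a role elsewhere. Start sites are those of the RefSeq windows. Cfap126 has 3 such windows, and the match lies in 1 of them, at a start inside the gene (chr1:171113918-171126967), while the window at the gene's first start has none. The Tekt4 window also lies inside its gene (chr17:25454615-25476602). A match is a description of letters and not a site of binding.

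The whole windows of Cfap206, a gene of the spoke base, and Tekt4, a tektin, are given because their levels differed between groups, as described further on. That of Cfap206 is chr4:34730157-34730456 on the minus strand and that of Tekt4 chr17:25471340-25471639 on the plus strand, with the X-box match in capitals:
Cfap206 promoter: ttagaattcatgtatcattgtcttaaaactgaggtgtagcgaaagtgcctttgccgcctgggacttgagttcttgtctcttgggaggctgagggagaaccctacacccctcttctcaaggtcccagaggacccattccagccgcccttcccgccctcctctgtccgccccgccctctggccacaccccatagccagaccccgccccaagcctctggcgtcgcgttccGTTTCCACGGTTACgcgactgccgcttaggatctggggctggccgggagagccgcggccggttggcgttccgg
Tekt4 promoter: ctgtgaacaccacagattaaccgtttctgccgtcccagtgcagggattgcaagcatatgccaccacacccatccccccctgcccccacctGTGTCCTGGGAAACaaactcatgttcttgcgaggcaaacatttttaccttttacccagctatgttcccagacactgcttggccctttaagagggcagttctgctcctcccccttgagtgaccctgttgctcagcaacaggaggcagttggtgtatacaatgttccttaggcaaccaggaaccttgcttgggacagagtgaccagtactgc

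Dorsal and ventral tissue were compared first, over all 24 libraries. Ventral tissue had less of the outer arm motor Dnah9 and of 11 other members and more of the inner arm motor Dnah7a and of 5 others. Dnah9 (ENSMUSG00000056752, chr11:65831282-66168551; GRCm38, here and below) had 9.0 CPM at its lowest, 19.2 at the median and 26.5 at its highest dorsal library, and 5.82, 8.32 and 13.1 CPM in ventral ones. The ranges overlap by 1 dorsal library, nicotine-sired female A. Its log2 fold change, ventral over dorsal, was -1.13 ± 0.17 (SE; edgeR's quasi-likelihood test, adjusted p = 6.41e-05). Dnah7a (ENSMUSG00000096141, chr1:53397006-53706784) ran from 0.696 through 1.12 to 1.54 CPM in dorsal and from 1.22 through 1.76 to 2.42 CPM in ventral libraries, a change of 0.64 ± 0.11 (edgeR adjusted p = 0.000155). Exons of Dnah9 overlap a gene on the opposite strand over 495 bp, and those of Dnah7a overlap none. Its copies Dnah7b and Dnah7c were at 0.03 ± 0.14 and 0.14 ± 0.22, which did not pass.

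In all, 18 of 66 members passed an adjusted p of 0.05 (27.3%), 6 higher and 12 lower in ventral tissue. Over all 19849 genes tested 29.2% passed, 14.3% higher and 14.9% lower, so the members' share was near that of all genes. The members' median was -0.12, against -0.00596 over all genes. Among outer arms, Dnah9 and Dnah8 (-0.44 ± 0.15) fell. Among inner arms, Dnali1 (-0.98 ± 0.30), a light intermediate chain, Cfap44 (-0.58 ± 0.21), a tether, and Cfap100 (-0.54 ± 0.11), a modifier, fell, and Dnah7a and Dnah1 (0.31 ± 0.06) rose. Of the doublet inner proteins, Cfap53 (-1.2 ± 0.32), Cfap126 (-1.03 ± 0.29), Cfap77 (-0.80 ± 0.30) and Tekt1 (-0.69 ± 0.25) fell.

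Dynlrb2 had 0.422 CPM at its lowest, 1.51 at the median and 4.85 at its highest dorsal library, against 0.301, 0.775 and 1.96 CPM in ventral ones, and fell by 1.0 ± 0.25 (edgeR adjusted p = 0.00394), with wide overlap of the regions. The assembly factor gene Dnaaf3 (-0.75 ± 0.25) and the heavy chain gene Dnah14 (-0.48 ± 0.16) fell too. The spoke head gene Rsph9 (0.25 ± 0.08), the regulatory complex gene Drc1 (0.30 ± 0.08), the coiled coil gene Cfap58 (0.69 ± 0.21) and Spag4 (0.34 ± 0.12), a nuclear envelope gene, rose. The central apparatus had 0 of 9 members called by edgeR, with 2 higher and 1 lower at an unadjusted p under 0.05. Over all genes 39.3% were under that unadjusted p.

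Markers of ciliated and choroid plexus cells moved with this comparison. Foxj1 fell by 0.79 ± 0.21 (edgeR adjusted p = 0.00759), 7 of 12 ependymal markers fell and 0 rose, and of 22 choroid plexus markers 15 fell and 1 rose, Ttr at -2.92 ± 0.89 (edgeR adjusted p = 0.0203). Here and below, the ependymal list holds Foxj1 itself and the member Rsph1, so it is not separate from them. The choroid plexus markers summed to between 100 and 6199 CPM in dorsal and between 95.2 and 2139 CPM in ventral libraries, and the ependymal markers to between 95.5 and 211 CPM and between 84.2 and 137 CPM. Without the 8 libraries of high choroid plexus level 15 members were called, 13 higher and 2 lower, where 16% of all genes were called, and 6 of these were among the 18. Dnah9 was then at -1.03 ± 0.21 (edgeR adjusted p = 0.00656), Cfap100 at -0.55 ± 0.15 (0.0203) and Dnah7a at 0.88 ± 0.15 (0.000909), whereas Dynlrb2 was at -0.23 ± 0.22 (0.565), Dnali1 at -0.10 ± 0.27 (0.864) and Tekt1 at -0.02 ± 0.18 (0.967). With choroid plexus level added as a covariate 10 members were higher and 6 lower, where 26% of all genes were called. With the Foxj1 level as a covariate, also chosen after seeing the data, 9 were higher and 3 lower, where 15% of all genes were called. With the animal as a block, since both regions came from each animal, 10 were higher and 15 lower, 25 in all, where 35.5% of all genes were called. In these refits and those below, the share of all genes was not split into higher and lower. Leaving out 1 animal at a time ended the call in 10 of 12 refits for Cfap77 and Tekt1, in 9 for Cfap44, in 7 for Rsph9 and Dnah8, in 6 for Spag4, in 5 for Dnaaf3, in 4 for Dnah14, in 2 for Cfap58 and Dnali1 and in none for the other 8.

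**Figure D3:**
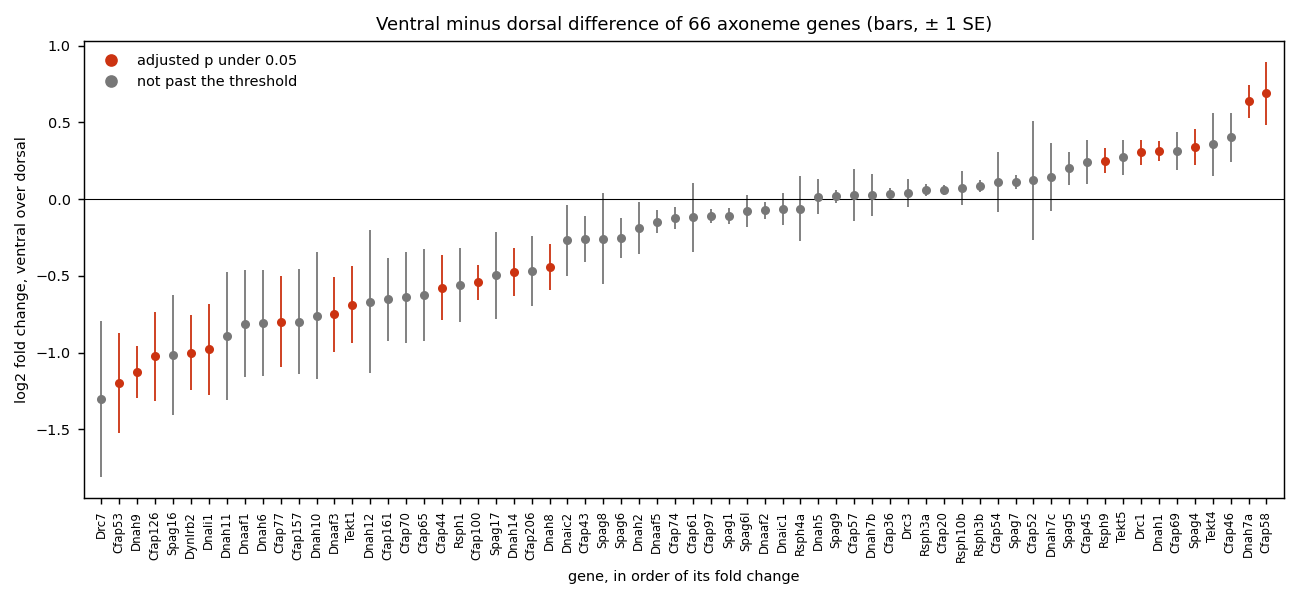
Log2 fold change of each of the 66 genes, ventral over dorsal, from the edgeR fit of 24 libraries, with bars of 1 SE, in order of size. Red marks the 18 genes past an adjusted p of 0.05, from Cfap53 at -1.2 to Cfap58 at 0.69; Drc7 is the lowest (-1.30) and does not pass.

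The next question was whether sire treatment was followed by the same difference in sons and daughters. In dorsal tissue, the difference between nicotine-sired and saline-sired offspring was more positive in females than in males for Cfap57, Cfap46, Spag17 and Dnah5. This sex difference uses the same 12 libraries as the 2 treatment differences it is made of. Cfap57 (ENSMUSG00000028730, chr4:118554551-118620777), which attaches an inner arm, was at 1.94, 1.26 and 1.26 CPM in saline-sired males and 0.665, 1.3 and 0.521 CPM in nicotine-sired males. In females it was at 0.497, 0.237 and 0.445 CPM with saline sires and 1.09, 2.41 and 1.74 CPM with nicotine sires. The female groups did not overlap, and the male groups did through nicotine-sired male B. The sex difference, female minus male, was 2.92 ± 0.56 on the log2 scale (SE; edgeR adjusted p = 0.0237).

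Cfap46 (ENSMUSG00000049571, chr7:139600951-139683817), a projection gene of the central apparatus, had 1.3, 1.39 and 1.14 CPM in saline-sired and 0.715, 0.826 and 0.273 CPM in nicotine-sired males. Females had 0.523, 0.50 and 0.695 CPM with saline and 1.15, 1.53 and 1.34 CPM with nicotine sires. Neither pair of groups overlapped, and the order was opposite in the sexes: the sex difference was 2.24 ± 0.46 (edgeR adjusted p = 0.0313).

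Spag17 (ENSMUSG00000027867, chr3:99885406-100143322), another projection gene, was measured at a median of 14.5 counts. It had 1.27, 1.04 and 0.657 CPM in saline-sired and 0.394, 0.413 and 0.248 CPM in nicotine-sired males, and 0.261, 0.0526 and 0.167 CPM in saline-sired and 0.304, 1.27 and 0.474 CPM in nicotine-sired females. Groups of each sex did not overlap, and the sex difference was 3.47 ± 0.80 (edgeR adjusted p = 0.0457). Its exons overlap other genes on the opposite strand over 1336 bp. The outer arm motor gene Dnah5 (ENSMUSG00000022262, chr15:28203752-28472052) had 5.59, 5.46 and 5.36 CPM in saline-sired and 2.61, 3.8 and 2.71 CPM in nicotine-sired males. Its female values were 3.45, 3.16 and 3.37 CPM with saline and 3.00, 5.68 and 6.14 CPM with nicotine sires, where nicotine-sired female A lay below all saline-sired females, while the male groups were apart. The sex difference of Dnah5 was 1.34 ± 0.31 (edgeR adjusted p = 0.0468).

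These 4 of 66 members were the ones called, all higher, where 2.24% of 19130 genes were called and 1.39% higher. At an unadjusted p under 0.05, 34 members were higher, against 10.9% of all genes. The median over the members was 1.26, against 0.0178 over all genes. By role the median was 2.31 for the doublet inner proteins, 2.24 for the central apparatus, 1.49 for spokes, 1.05 for inner arms, 0.99 for outer arms and 0.36 for assembly factors, and -0.09 for the 6 genes with roles elsewhere. Foxj1 had a sex difference of 2.62 ± 0.71, which did not pass (edgeR adjusted p = 0.0882), and 0 of 22 choroid plexus markers and 0 of 12 ependymal markers were called by edgeR, at medians of 2.94 and 2.14. Of the ependymal markers 7 and of the choroid plexus markers 0 were higher at an unadjusted p under 0.05. The choroid plexus markers summed to between 221 and 6199 CPM in dorsal saline-sired males, 100 and 1211 CPM in saline-sired females, 107 and 2260 CPM in nicotine-sired males and 157 and 6045 CPM in nicotine-sired females. Their part in the result was not tested.

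The count of calls rested on few libraries. DESeq2, run without the low-count filter, called 24 members where it called 3.94% of 31980 genes. Leaving out 1 library gave from 0 to 18, with 18 without nicotine-sired female A, where 4.29% of genes were called. It ended the call of Cfap57 in 5 of 12 refits, of Cfap46 in 7 and of Spag17 and Dnah5 in 10 each. The fit without the 6 dorsal libraries of high choroid plexus level called 12, 10 higher and 2 lower, where 9.39% of genes were called. In that fit, Cfap46 (3.28 ± 0.68, edgeR adjusted p = 0.00868) and Cfap57 (2.74 ± 0.71, adjusted p = 0.0295) passed, and Spag17 (2.61 ± 1.15, adjusted p = 0.194) and Dnah5 (0.77 ± 0.33, adjusted p = 0.179) did not. With the Foxj1 level as a covariate none of the 4 passed (adjusted p from 0.193 to 0.481), at 1.55 ± 0.59 for Cfap57 and 1.63 ± 0.60 for Cfap46, and the median over members was -0.26.

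In ventral tissue the sex difference was called for Cfap77, Dynlrb2, Cfap206 and Dnali1, and whether it differed between the regions was not tested. Cfap77 (ENSMUSG00000079502, chr2:28926949-29055066), a doublet inner protein gene at a median of 18.5 counts, was at 0.734, 0.786 and 0.518 CPM in saline-sired males and 0.227, 0.232 and 0.0977 CPM in nicotine-sired males. In females it was at 0.0927, 0.312 and 0.117 CPM with saline and 0.551, 0.879 and 0.602 CPM with nicotine sires. Groups did not overlap in either sex, and the order was opposite: the sex difference was 3.82 ± 0.63 (edgeR adjusted p = 0.00946).

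Dynlrb2 (ENSMUSG00000034467, chr8:116504974-116515915) had 0.872, 1.09 and 0.818 CPM in saline-sired and 0.732, 0.505 and 0.366 CPM in nicotine-sired males. Its levels in females were 0.301, 0.406 and 0.705 CPM with saline and 1.48, 1.96 and 1.66 CPM with nicotine sires, again without overlap in either sex, for a sex difference of 2.64 ± 0.45 (edgeR adjusted p = 0.0118). For Cfap206 (ENSMUSG00000028294, chr4:34688559-34730206), whose promoter is shown above, saline-sired males had 1.08, 0.948 and 0.736 CPM, nicotine-sired males 0.884, 0.653 and 0.562, saline-sired females 0.649, 0.624 and 0.676, and nicotine-sired females 1.48, 1.70 and 2.18 CPM. Its female groups did not overlap while the male ones did (1.84 ± 0.35, edgeR adjusted p = 0.0239).

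Dnali1 (ENSMUSG00000042707, chr4:125055338-125065703) had 1.61, 1.73 and 0.791 CPM in saline-sired and 0.859, 0.526 and 0.781 CPM in nicotine-sired males. Female levels of this inner arm gene were 0.255, 0.749 and 0.822 CPM with saline and 1.41, 1.96 and 2.09 CPM with nicotine sires, and its sex difference was 2.53 ± 0.55 (edgeR adjusted p = 0.0432). The female groups were apart and the male groups overlapped.

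These 4 of 65 members tested (Cfap53 was too low in ventral tissue) were all higher, where 1.07% of 19224 genes were called and 0.557% higher. At an unadjusted p under 0.05, 20 were higher, against 6.63% of all genes, and the median was 0.39, against -0.00715. In this tissue nicotine-sired females B and C carried the 2 high choroid plexus levels, and no other ventral library did. Foxj1 had a sex difference of 1.26 ± 0.34 that did not pass (edgeR adjusted p = 0.109), and edgeR called 0 of 22 choroid plexus markers, 11 of them higher and 1 lower at an unadjusted p under 0.05, and 0 of 12 ependymal markers, 8 of them higher and 1 lower. The choroid plexus markers summed to 153, 2139 and 2096 CPM in nicotine-sired females and to between 95.2 and 226 CPM in the other groups. Their part in the result was not tested.

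Without nicotine-sired females B and C the group keeps 1 animal, which is assumed to vary like the other groups. None of the 4 passed then: Cfap77 was at 3.55 ± 0.78 (edgeR adjusted p = 0.0789), Dynlrb2 at 2.46 ± 0.56 (0.0856), Cfap206 at 1.59 ± 0.43 (0.159) and Dnali1 at 2.18 ± 0.68 (0.217). Nicotine-sired female A, the animal of that group with little Ttr (79.6 CPM), was above all saline-sired females for each of the 4 genes. The 4 were called in a fit that holds this library, so its position is not a separate result. The part of choroid plexus was not tested. Leaving out 1 library at a time kept Cfap77 and Dynlrb2 past the threshold in 12 of 12 refits, and ended the call of Cfap206 in 8 and of Dnali1 in 9. None passed with the Foxj1 level as a covariate (adjusted p from 0.358 to 0.597).

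**Figure D4:**
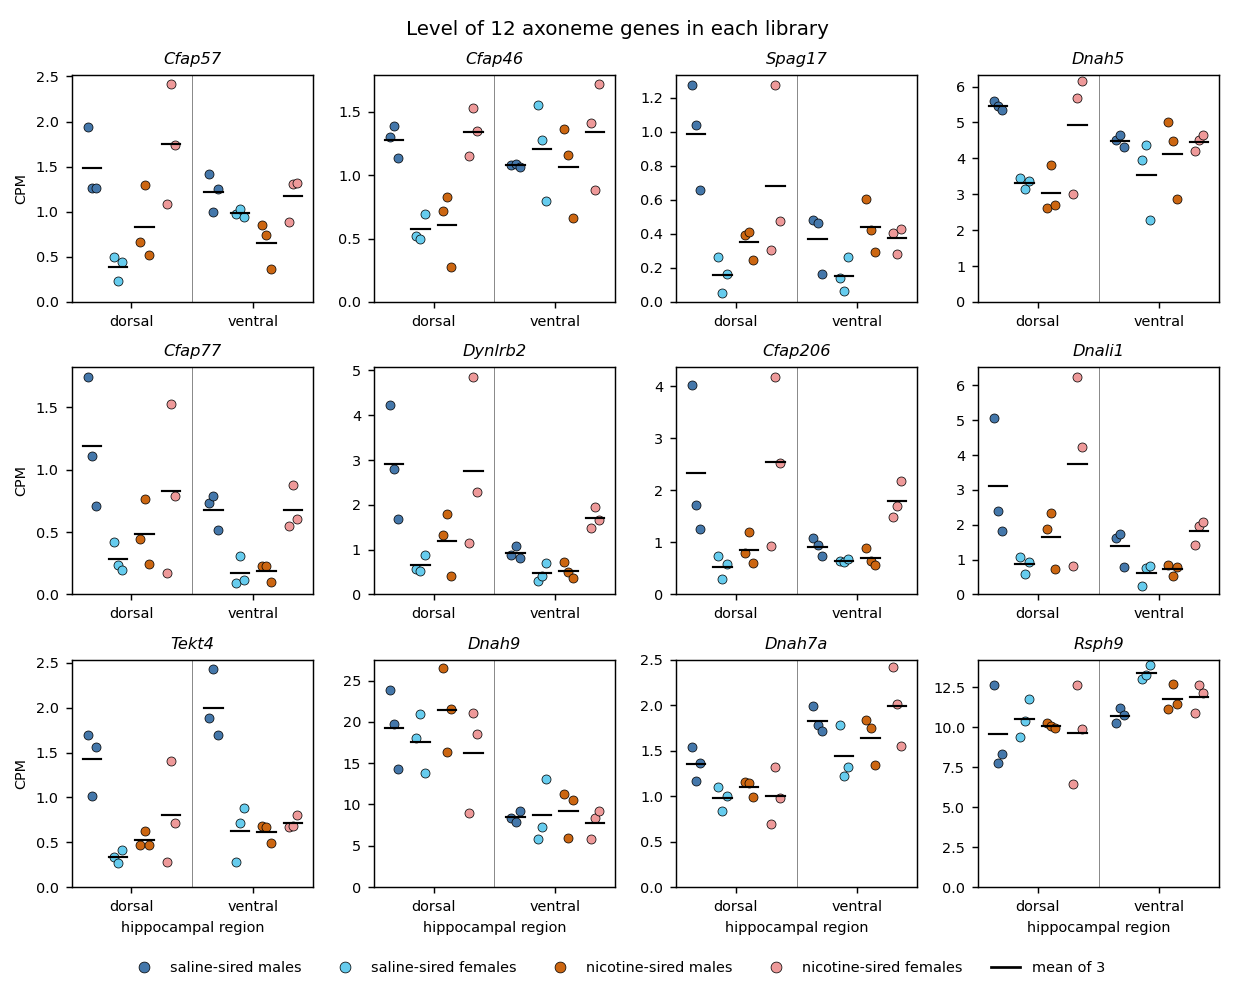
CPM of 12 members in each library (points, linear axis from 0), by region and by sire treatment and sex (colours), with black bars at the mean of 3. In dorsal panels of Cfap46 and ventral panels of Cfap77 the male and female groups run in opposite order, and Dnah9 is lower and Dnah7a higher in ventral than in dorsal tissue.

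Within males, sire treatment was followed by lower Tekt4 and Cfap77 in ventral tissue. Tekt4 (ENSMUSG00000024175, chr17:25454615-25476602), a filament protein gene of the doublets, had 1.88, 2.43 and 1.69 CPM in saline-sired males and 0.682, 0.674 and 0.488 CPM in nicotine-sired males. The groups were far apart, with saline-sired males also above every ventral female (0.278 to 0.881 CPM). Tekt4 fell by 1.67 ± 0.32 (edgeR adjusted p = 0.00965), and Cfap77, with the levels given above, by 1.83 ± 0.43 (edgeR adjusted p = 0.0311). They were 2 of 65 members, both lower. Of all genes 3.21% were called and 1.39% were lower, so the members' share of calls was near that of all genes. Another 8 members were lower at an unadjusted p under 0.05, 10 with these 2, against 7.27% of all genes, and the median was -0.13, against 0.00899. Foxj1 (-0.72 ± 0.24, edgeR adjusted p = 0.155) did not pass. With its level as a covariate neither gene passed (adjusted p = 0.408 and 0.484), and without nicotine-sired male C neither did. Leaving out any 1 of the 6 males ended the call of Cfap77, as did leaving out nicotine-sired females B and C together (edgeR adjusted p = 0.0592). Of 12 ependymal markers 11 were negative, 3 lower and 1 higher at an unadjusted p under 0.05 and 0 called by edgeR, at a median of -0.55, and of 22 choroid plexus markers 1 was called, higher, at a median of 0.29. Their part in the result was not tested.

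Dorsal males had no called member: edgeR called 0 of 66 where 1.78% of genes were called, 10 were lower at an unadjusted p under 0.05 against 9.52% of all genes, and DESeq2 called 1 where it called 2.74% of genes. The smallest adjusted p-values were those of Dnah5 (-0.79 ± 0.22, edgeR adjusted p = 0.097), Cfap46 (-1.03 ± 0.33, 0.138) and Dnah1 (-0.46 ± 0.15, 0.139). The median was -0.68, against -0.000644 over all genes, and 55 of 66 were negative. By role it was -0.89 for the doublet inner proteins, -0.72 for inner arms, -0.65 for the central apparatus and 0.03 for genes with roles elsewhere. The choroid plexus list had a median of -0.60. Without the 6 libraries of high choroid plexus level, 6 members were called, all lower, at a median of -0.92, where 1.61% of genes were called.

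Dorsal females likewise had 0 of 66 called by edgeR, where 0.0314% of genes were called. At an unadjusted p under 0.05, 28 members were higher, against 7.2% of all genes, and DESeq2 called 5 where it called 0.804% of genes. Cfap57 (2.12 ± 0.41, edgeR adjusted p = 0.164), the central apparatus gene Spag6 (0.84 ± 0.20, 0.182) and the spoke head gene Rsph10b (0.96 ± 0.26, 0.2) were nearest. The median was 0.74 against 0.00855, and 55 of 66 were positive, with role medians from 0.25 for assembly factors to 1.27 for the doublet inner proteins and -0.06 for the genes with roles elsewhere. The choroid plexus list had a median of 2.5 and the ependymal list of 1.25. The members' median changed sign without the 6 libraries of high choroid plexus level, to -0.10, with 6 members called higher and 1 lower, where 9.32% of genes were called.

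In ventral females edgeR called 0 of 65 members where 0.0312% of genes were called. At an unadjusted p under 0.05, 18 were higher, against 7.23% of all genes, and 2 lower, against 6.65%, and DESeq2 called 7 where it called 0.864%. Cfap206 (1.46 ± 0.25) and Dynlrb2 (1.87 ± 0.32) missed the threshold at an edgeR adjusted p of 0.0589 each, and Cfap77 (1.99 ± 0.46) was at 0.126. The median was 0.28 against 0.000314, and 51 of 65 were positive. Here 20 of 22 choroid plexus markers were higher at an unadjusted p under 0.05, with 0 called by edgeR. Without nicotine-sired females B and C 1 member was called, at a median of 0.20, where 0.245% of genes were called.

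Averages over the sexes showed no called member. For sire treatment in dorsal tissue edgeR called 0 of 66 where 0.0784% of genes were called (2 members at an unadjusted p under 0.05 against 10.8% of all genes; DESeq2 0 against 0.629%), with Spag6 (0.35 ± 0.15, edgeR adjusted p = 0.414), Cfap57 (0.66 ± 0.28, 0.424) and Rsph10b (0.35 ± 0.18, 0.513) nearest. In ventral tissue edgeR called 0 of 65 where 1.75% were called (11 at an unadjusted p under 0.05 against 15.7%; DESeq2 0 against 2.11%), with the central apparatus gene Cfap65 (0.81 ± 0.24, edgeR adjusted p = 0.119), Cfap206 (0.54 ± 0.18, 0.153) and Tekt4 (-0.72 ± 0.24, 0.154) nearest. The difference in sire treatment between the regions gave 0 of 66 where 0% of genes were called (1 member at an unadjusted p under 0.05 against 4.76%; DESeq2 0 against 0%), and its smallest adjusted p was 0.881, for Cfap57, Dnaaf5 and Spag9.

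Females and males differed in no member by edgeR. In dorsal tissue 0 of 66 were called where 0.183% of genes were (2 at an unadjusted p under 0.05 against 8.12%; DESeq2 1 against 0.363%), and Spag6 (0.63 ± 0.15, edgeR adjusted p = 0.189), Tekt4 (-0.71 ± 0.32, 0.604) and Spag17 (-0.82 ± 0.40, 0.64) were nearest. In ventral tissue 0 of 65 were called where 0.291% were (9 at an unadjusted p under 0.05 against 11.9%; DESeq2 0 against 0.748%), and the intermediate chain gene Dnaic2 (0.72 ± 0.22, edgeR adjusted p = 0.216), Dnah1 (0.26 ± 0.08, 0.235) and Tekt4 (-0.73 ± 0.24, 0.245) were nearest.

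Other genes of the pathway were read from the same fits. Of 55 further motile cilia genes, 52 were tested in the region comparison: 4 rose in ventral tissue, among them Wdr66 (0.61 ± 0.12) and Ccdc65 (0.43 ± 0.09), and 13 fell, among them Wdr63 (-1.91 ± 0.45) and Tppp3 (-0.55 ± 0.08). Over all genes tested 14.3% rose and 14.9% fell, the shares to set beside this list and the other lists below. Tppp3, a tubulin-binding protein gene, also fell in nicotine-sired males, at -0.94 ± 0.11 in ventral males (edgeR adjusted p = 0.000349) and -0.97 ± 0.19 in dorsal males (0.0326). The list had 2 of 51 lower in ventral males, Tppp3 and Wdr78 (-0.47 ± 0.10, 0.017), and 2 higher, Ulk4 (0.89 ± 0.17, 0.0106) and Nme7 (0.46 ± 0.11, 0.0312). Over all genes 1.39% were lower and 1.82% higher in that comparison. The sex difference of Tppp3 was 0.86 ± 0.15 (0.0151) in ventral and 1.67 ± 0.27 (0.017) in dorsal tissue. Beside Tppp3, Ttc25, an outer arm docking gene, had a dorsal sex difference of 2.07 ± 0.46 (0.0401) and Wdr78, a dynein gene, a ventral one of 0.96 ± 0.14 (0.0045). Of 22 ciliogenesis regulators 18 were tested: 2 rose in ventral tissue and 7 fell, led by Trp73 (-1.07 ± 0.23), a p53 family factor, and including Rfx3 (-0.42 ± 0.10), the X-box binding factor. Rfx4 rose in ventral tissue of nicotine-sired males (0.59 ± 0.11, edgeR adjusted p = 0.00723). Intraflagellar transport and BBSome genes, which serve primary cilia as well, had 10 of 43 higher and 5 lower in ventral tissue, at a median of 0.03.

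The protein-coding genes outside the symbol list whose level most resembled the summed CPM of the 60 genes, by the mean of the dorsal and ventral rank correlations over 12 libraries each, were Maats1 (0.888), Cab39l (0.885), Mlf1 (0.878), Nek5 (0.874), Pon3 (0.871), Vwa5b1 (0.871), Ccdc113 (0.867), Frmpd2 (0.864), Pifo (0.864) and Exosc10 (0.86). Cab39l is among the 22 choroid plexus markers and Ccdc113 among the further motile cilia genes.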

How the data were processed

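Poly(A) RNA was sequenced in stranded single-end libraries from 24 samples, per the labels' protocols. The authors deposited 1 table of raw counts per Ensembl gene (51912 genes), used here as deposited. TopHat2 2.1.0, Cufflinks and Cuffdiff 2.2.1.3, with the build mm10/GRCm38, are named without roles, per the submitters' processing notes. Which program counted the reads, with which strand setting, rule for multiple hits and annotation, is not given in the sources used here. Gene positions are from GENCODE M21 (51719 IDs matched, all 66 members among them), and promoters from RefSeq.

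CPM is the count over the column sum, times 1000000. Each region was fitted over its 12 libraries and 4 groups, and the regions together over 24 libraries and 8 groups, with edgeR 4.0.16 (R 4.3.3): TMM, filterByExpr, robust quasi-likelihood test and Benjamini-Hochberg adjustment over all genes tested (19130 dorsal, 19224 ventral, 19849 joint), called at 0.05. Log2 fold changes carry SEs derived from the F statistic. Alternatives were DESeq2 1.42.0, other filters and spreads, covariates, an animal block and libraries left out. DESeq2 was run without the low-count filter, so its shares are over larger sets (31980 genes dorsal, 32073 ventral, 34059 joint). Those sets include genes of very few counts, and the shares are not on the same base as edgeR's. The scripts were tested on simulated data. Correlations used SciPy 1.17.1, with log2(CPM + 0.1) for Pearson's r. Library totals of 32049770 to 47486547 counts leave the lowest genes at few counts (Cfap53 at a median of 8).

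Titles give each animal 1 number and letter in both regions. The deviations of an animal's 2 libraries from their group means correlated over 0.1 in 9 of 12 pairs (median r 0.15, from -0.076 to 0.53).

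The genes and lists were chosen with earlier results of these data known. Genes named are those called, the 3 of smallest p where none was called, and the highest in level per role. A few named as extremes of a range were chosen after their values were seen.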

Additional observations from a re-analysis of the deposited data

Results flagged for a closer look

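The difference between nicotine-sired and saline-sired offspring itself differed between females and males, by the edgeR test of that difference, for 8 genes. In dorsal tissue these were Spag17 (3.47 on the log2 scale, female minus male), Cfap57 (2.92), Cfap46 (2.24) and Dnah5 (1.34). In ventral tissue they were Cfap77 (3.82), Dynlrb2 (2.64), Dnali1 (2.53) and Cfap206 (1.84). No gene was on both lists, but the lists rest on a threshold within each region. Whether the sex difference itself differed between the regions was not tested. Of the 8, Cfap46, Spag17, Cfap77 and Dynlrb2 had no overlap between the sire groups in either sex in the region concerned. The 8 genes were picked by a test on these same libraries, so groups that lie apart are no separate evidence. The share of all genes without such overlap was not computed.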

How the results depend on the processing

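Counts of called genes moved as follows, and the share of all genes called moved too. For the dorsal sex difference that share was 2.24% in the main fit, 3.94% with DESeq2 and 4.29% without nicotine-sired female A. Most counts below are given without such a share, so they do not set the members apart from all genes. With no filter on low counts they were 1 in dorsal females, 4 in ventral females and 7 for the ventral sex difference. DESeq2 called 1 in dorsal males, 5 in dorsal females, 24 for the dorsal sex difference, 1 for dorsal females against males, 7 in ventral females and 8 for the ventral sex difference. With the spread of all 24 libraries the counts were 2 in dorsal females, 22 and 1 for the dorsal and ventral sex differences and 1 in ventral males. The choroid plexus covariate gave 3 in dorsal males and 1 in ventral females, and the Foxj1 covariate 1 and 0 for the dorsal and ventral sex differences and 0 in ventral males. Without the libraries of high choroid plexus level there were 6 in dorsal males, 7 in dorsal females, 5 over both dorsal sexes, 12 for the dorsal sex difference and 1 each in ventral males, ventral females and the ventral sex difference. A level limit of 0.1 or 1 CPM would give 76 or 50 genes. With the animal as a replicate block the region comparison called 25, all 18 among them.

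Leaving out 1 library gave 0 to 2 calls in dorsal males (2 without nicotine-sired female A), 0 to 18 for the dorsal sex difference, 0 to 2 in ventral males (0 without nicotine-sired male C, 1 without any other male), 0 to 5 in ventral females (2 when nicotine-sired male A and 5 when nicotine-sired female A was left out) and 0 to 2 over both ventral sexes (1 without saline-sired female A, 2 without nicotine-sired female A). It gave 2 to 7 for the ventral sex difference, 0 to 1 for ventral females against males (7 and 1 without nicotine-sired female A) and, with both libraries of an animal left out, 10 to 28 for region (10 without saline-sired female A, 11 without nicotine-sired male B, 28 without nicotine-sired female A). The ventral sex difference had 2 without saline-sired males A or B, saline-sired females B or C, nicotine-sired males B or C or nicotine-sired females B or C. The dorsal one had 0 without saline-sired male A, saline-sired female B, nicotine-sired male A or nicotine-sired female C, 1 without saline-sired male B, saline-sired female A, nicotine-sired male C or nicotine-sired female B, 2 without saline-sired female C and 18 without nicotine-sired female A. The other 4 comparisons had 0 calls in each such refit.

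With the Foxj1 covariate the region difference changed sign for Cfap126 (0.0718), Dnali1 (0.0228), Dnaaf3 (0.12), Cfap44 (0.13), Tekt1 (0.20) and Cfap77 (0.17); the cause was not tested. Of 1060 values of single genes under all alternatives, 856 kept direction and side of the threshold, 176 lost and 22 gained a call and 6 reversed.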

Other observations

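Spag6, a central apparatus gene with the near-identical copy Spag6l, was at 4.09, 2.59 and 3.72 CPM in dorsal tissue of nicotine-sired females A, B and C, all above the other 9 dorsal libraries (2.21 CPM or less). In ventral tissue the same animals had 4.17, 2.04 and 1.81 CPM, and the other 9 libraries 2.13 CPM or less. The outer arm gene Dnaic2 was at 3.76 CPM in dorsal and 4.5 CPM in ventral tissue of saline-sired female A, against 1.26 and 1.45 CPM in dorsal and 2.25 and 1.67 CPM in ventral tissue of saline-sired females B and C.

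Cfap52, a doublet inner protein gene, was at 0.593 and 0.342 CPM in ventral tissue of saline-sired female B and nicotine-sired male C and at 1.12 CPM or more in the other 10 ventral libraries. Drc7 was at 7.86 and 10.2 CPM in ventral tissue of nicotine-sired females B and C, the ventral libraries of high Ttr, and at 2.38 CPM or less in the other 10. These genes were chosen after their values were seen.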
